A study of Caenorhabditis elegans with 2 samples.

Results

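The nuclear hormone receptor genes of Caenorhabditis elegans were taken as every protein-coding gene whose symbol starts with nhr-, together with daf-12, in the Ensembl annotation of the WBcel235 assembly. The rule gave 270 genes of 19973 protein-coding genes. Binding of HMG-11 at their promoters was read from chromatin immunoprecipitation with sequencing (ChIP-seq) of whole worms. There was 1 group, of 2 biological replicates. The worms were hermaphrodites of strain TH184 (unc-119(ed3) III; ddIs101), which carries an inserted hmg-11 transgene with GFP and FLAG at the C terminus of the protein, and an antibody to GFP was used. They were L3 larvae, 52 h after synchronisation from starved L1 larvae. All libraries share the unc-119 allele and the transgene, and the signal is that of the tagged protein. Whole animals mix every cell type, so binding in a few cells and weak binding in many cells cannot be told apart. No input or untagged library was analysed here, and no conditions were compared.

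Nuclear hormone receptors are transcription factors with a zinc finger DNA-binding domain and a domain that, in many of them, binds a small lipophilic ligand. Nematodes carry an unusually large family: a small set has clear counterparts in flies and vertebrates, and a much larger set descends from an ancestor related to HNF4, a vertebrate liver receptor. The worm receptors are known for roles in moulting, dauer entry, fat and vitamin B12 metabolism and responses to toxins and pathogens. HMG-11 belongs to the HMGA proteins, which grip runs of A and T through short motifs called AT-hooks.

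The pooled list of both replicates held 30000 candidate regions, peaks and background together, each with a summit and the authors' signal, on the ce11 build. The signal served to rank regions within a list, and rank 1 is the strongest. A region that passed the authors' filter on the irreproducible discovery rate (IDR), which weighs how alike the ranks are between lists, is called a peak here. There were 4037 peaks, and they were the 4037 strongest pooled regions, with signals of 67.9 to 529.4. A gene is called listed when a summit lay between 1000 bp upstream and 200 bp downstream of any of its annotated transcript starts, and its strongest such region stands for it. Numbers of reads are not known from these lists, and regions weaker than a signal of 18.9 were not seen.

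The DNA at the summits of the strongest receptor peaks is shown first, since HMGA proteins are known for A/T-rich sites. Each line gives the summit base with 50 bases on either side, 101 bases in all, on the strand of the gene, from the RefSeq sequence of the same assembly. Capitals mark runs of at least 6 bases made of A and T alone. The first 5 are peaks in the promoter windows of nhr-1 (chrX:17513674-17513774), nhr-255 (chrX:15741974-15742074), nhr-40 (chrX:2598920-2599020), nhr-48 (chrX:15707482-15707582) and nhr-41 (chrIV:1388270-1388370). All 5 are on the plus strand of ce11, and the nhr-40 and nhr-41 summits lay in introns of those genes. nhr-228 (chrV:2281623-2281723, plus strand) is the strongest peak of the receptor clusters on the arms of chromosome V. Peaks inside introns are shown for nhr-17 (chrX:12665144-12665244, minus strand) and daf-12 (chrX:10637476-10637576, plus strand). nhr-274 (chrIV:1644708-1644808, minus strand) holds the receptor summit with the highest A+T content among regions that were not peaks, and is shown for contrast. These last 4 were chosen after their values were seen.
nhr-1: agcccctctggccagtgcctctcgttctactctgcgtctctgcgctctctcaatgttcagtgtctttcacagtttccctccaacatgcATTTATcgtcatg
nhr-255: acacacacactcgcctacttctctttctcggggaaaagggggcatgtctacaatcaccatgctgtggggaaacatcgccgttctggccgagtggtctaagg
nhr-40: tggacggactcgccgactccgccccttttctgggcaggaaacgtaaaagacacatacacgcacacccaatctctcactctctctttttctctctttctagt
nhr-48: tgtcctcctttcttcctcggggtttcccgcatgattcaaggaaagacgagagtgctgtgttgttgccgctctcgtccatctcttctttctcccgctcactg
nhr-41: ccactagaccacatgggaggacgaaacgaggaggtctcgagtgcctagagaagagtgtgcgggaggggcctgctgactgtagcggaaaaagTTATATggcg
nhr-228: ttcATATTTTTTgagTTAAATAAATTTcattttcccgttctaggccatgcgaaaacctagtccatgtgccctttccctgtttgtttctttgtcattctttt
nhr-17 intron: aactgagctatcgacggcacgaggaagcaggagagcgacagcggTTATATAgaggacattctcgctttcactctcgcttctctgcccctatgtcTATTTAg
daf-12 intron: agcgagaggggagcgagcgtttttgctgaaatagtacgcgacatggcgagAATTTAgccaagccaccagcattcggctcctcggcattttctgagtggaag
nhr-274: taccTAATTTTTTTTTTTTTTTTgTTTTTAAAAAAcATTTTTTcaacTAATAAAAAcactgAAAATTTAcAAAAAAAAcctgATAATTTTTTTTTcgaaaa
The first 5 of these sequences held at most 1 such run each, of 6 bases, and nhr-255, nhr-40 and nhr-48 held none. The nhr-228 sequence held 2 runs, the longer of 12 bases, and nhr-274 held 7 runs that covered 75 of its 101 bases. A+T content was 48.5% at nhr-1, 45.5% at nhr-255, 49.5% at nhr-40, 46.5% at nhr-48 and 43.6% at nhr-41. It was 65.3% at nhr-228 and 85.1% at nhr-274, against 64.6% over the 6 chromosomes. At the unprinted summits it was 43.6% for nhr-47 and 55.4% for nhr-49. The summits of nhr-41 and nhr-255, with the 2 lowest values among the printed sequences, each lay in the window of a tRNA gene as well.

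HMG-11 regions were found at about as large a share of the receptor genes as of coding genes in general, but fewer of the receptors' regions were peaks. Of the 270 receptors, 96 (35.6%) were listed, against 34.4% of all protein-coding genes. Of the 96, 26 (27.1%) had a peak, against 43.5% of listed coding genes, and over all genes the shares were 9.63% and 15%. The other 70 listed receptors had weaker regions, and 174 had no listed region. The median rank of the strongest region was 8026.5 for listed receptors and 5241.0 for listed coding genes. Of the receptors' promoter regions, none was among the 100 strongest regions, 2 were among the 250 strongest, 6 among the 1000 strongest and 12 among the 2000 strongest. Of the 6861 listed coding genes, 76, 195, 817 and 1686 had their strongest region within these ranks, in the same order. Genes are not replicates, and no test was run on these counts. Many coding genes share a peak with a neighbour: when a gene's strongest region had to lie in the window of 1 coding gene alone, a setting added after the data were seen, the shares with a peak were 23 of 86 receptors (26.7%) and 32.3% of coding genes. The same shares were 27.8% of 90 receptors and 37.4% of coding genes when each summit was given to the gene of the nearest start.

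The 10 receptors with counterparts in flies or vertebrates included 7 listed genes (70.0%) and 2 peaks (28.6% of the listed), at nhr-48 and nhr-41. Over all protein-coding genes, 34.4% were listed and 43.5% of those had a peak. This list and those below were short, and were chosen with earlier results of these data known. nhr-48, a relative of daf-12 and nhr-8, had a pooled signal of 153.1 (rank 865), 65.9 in replicate 1 (rank 899) and 88.0 in replicate 2 (rank 935), with the summit 681 bp upstream of its start. nhr-41, the counterpart of the vertebrate testicular receptors TR2 and TR4, had a pooled signal of 139.2 (rank 1085), 43.0 in replicate 1 (rank 2441) and 99.0 in replicate 2 (rank 682). Its summit lay in an intron, 336 bp upstream of one of its starts and 223 bp downstream of a nearer one. The summit was also in the window of a tRNA gene. The nhr-48 peak thus held nearly the same rank in all 3 lists, while the nhr-41 peak stood much higher in replicate 2. nhr-85, the counterpart of E75 in flies and Rev-erb in vertebrates, stood just short of the peaks, with a signal of 63.5 (rank 4465) and ranks of 3990 in replicate 1 and 4797 in replicate 2.

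Promoter regions of middling rank were found at daf-12 and nhr-8. daf-12, the receptor for dafachronic acids that controls dauer entry, had a signal of 44.7 (rank 7946; ranks 23155 in replicate 1 and 6120 in replicate 2) in its promoter window. nhr-8, which acts in sterol balance and resistance to toxins, had a signal of 45.3 (rank 7785; ranks 16827 and 7047 in replicates 1 and 2), and that summit lay nearer to the start of mrps-24. These promoter regions thus ranked lower in replicate 1 than in replicate 2. nhr-23, the counterpart of ROR receptors that drives moulting, had a weak region with a signal of 21.1 (rank 26448), and nhr-91, the counterpart of the vertebrate germ cell nuclear factor, one of 19.9 (rank 28366). nhr-6, nhr-25 and nhr-67, the counterparts of the NR4A receptors, of SF-1 and of tailless, had no listed region.

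Receptors known for metabolic roles had 8 of 10 genes listed, against 34.4% of all protein-coding genes. Of the 8, 4 had peaks, against 43.5% of listed coding genes: nhr-49, nhr-66, nhr-13 and nhr-64. nhr-49, which controls fat desaturation and the response to fasting, had the strongest, with a pooled signal of 150.1 (rank 904), 58.1 in replicate 1 (rank 1278) and 110.3 in replicate 2 (rank 457). Its summit lay 311 bp upstream of the start (chromosome I, 9869112 to 9869567). nhr-66 and nhr-13 encode known partners of NHR-49 in lipid gene control. nhr-66 had a pooled signal of 117.1 (rank 1660) and ranks of 1170 and 1745 in replicates 1 and 2, and nhr-13 had 87.2 (rank 2834) and ranks of 4950 and 2575. nhr-64, which affects fat storage, had 72.3 (rank 3704) and ranks of 2556 and 3328. Of these 4, nhr-13 alone missed the 4037 strongest regions of a replicate.

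The other listed metabolic receptors were far from the peak limit. nhr-62, which acts in the lifespan response to dietary restriction, had a signal of 32.2 (rank 14276). nhr-114, known for a response to low vitamin B12 and tryptophan, had 31.8 (rank 14567). nhr-80, a further partner of NHR-49 in fat desaturation, had 27.3 (rank 18634) at a summit nearer to the start of H10E21.1. nhr-10 had 22.5 (rank 24457), and nhr-68, which acts with it on propionate breakdown, was unlisted. nhr-69 was unlisted too.

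Of 7 further receptors with a described role, 4 were listed, against 34.4% of all protein-coding genes. Of the 4, 3 had peaks, against 43.5% of listed coding genes. nhr-40, needed for muscle development and movement, had a pooled signal of 162.1 (rank 716), 75.6 in replicate 1 (rank 588) and 92.5 in replicate 2 (rank 820), 438 bp upstream of its nearest start and in an intron. nhr-86, which senses a bacterial metabolite and turns on defence genes, had 90.1 (rank 2684) and ranks of 3359 and 2579 in replicates 1 and 2. nhr-14, which represses iron uptake genes, had 83.4 (rank 3041) and ranks of 3504 and 3193. All 3 stood among the 4037 strongest regions of both replicates. nhr-31, needed for the excretory cell, had a weak region (signal 20.6, rank 27230), and nhr-2, nhr-57 and nhr-60, known from the embryo, the response to hypoxia and the seam cells, were unlisted.

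The remaining 243 receptors, which were in none of these lists, had 77 listed genes (31.7%) and 17 peaks (22.1% of the listed). The same shares over coding genes were 34.4% and 43.5%. The strongest receptor peaks were in this set. nhr-1 had a pooled signal of 225.7 (rank 211), 109.1 in replicate 1 (rank 106) and 116.8 in replicate 2 (rank 373), 339 bp upstream of its start. nhr-255 had 222.0 (rank 230), 100.9 in replicate 1 (rank 168) and 120.9 in replicate 2 (rank 329), 586 bp upstream. The nhr-255 summit also lay in the windows of a tRNA gene and of the noncoding RNA gene ZK678.11. nhr-47 had 163.0 (rank 709), 85.8 in replicate 1 (rank 361) and 76.0 in replicate 2 (rank 1364), 13 bp upstream of its start and in the window of dnj-19, a gene of the DNAJ family of co-chaperones.

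The other 14 peaks of this set had pooled signals between 134.8 and 70.9. They lay at nhr-142 (134.8), nhr-228 (126.3), nhr-32 (111.5), nhr-88 (107.7), nhr-256 (102.0), nhr-184 (97.1), nhr-190 (95.9), nhr-122 (89.9), nhr-135 (87.3), nhr-65 (83.6), nhr-154 (83.4), nhr-132 (78.2), nhr-3 (74.3) and nhr-95 (70.9). The nhr-142 summit was nearer to the start of F44E7.9 and lay in the window of both genes. The 5 weakest of all 26 peaks were nhr-154, nhr-132, nhr-3, nhr-64 and nhr-95, at ranks 3043 to 3809. Counting each gene's strongest promoter region, the receptors just below the peaks were nhr-56 (66.8, rank 4143), nhr-134 (65.5, rank 4255), nhr-85, nhr-133 (61.9, rank 4625) and nhr-71 (57.1, rank 5243). The receptors on either side of the limit therefore differed little in signal, with 70.9 at nhr-95 and 66.8 at nhr-56.

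All 26 receptor peaks were found in the lists of both replicates, as were 99.6% of the 2240 distinct peaks at coding genes. The pooled list draws on both replicates and the IDR filter weighs agreement of ranks, so this is no independent check of the peaks. Of the 26, 20 (76.9%) were in the top 4037 regions of each replicate and 6 in that of 1 replicate, against 76.5% of the coding peaks for both. The 6 were nhr-13 and nhr-132, which missed it in replicate 1, and nhr-122, nhr-65, nhr-3 and nhr-95, which missed it in replicate 2. Their ranks in the replicate that missed lay between 4378 (nhr-3) and 5086 (nhr-132). Among the 70 weaker regions, 49 (70.0%) were found in both replicates and 21 in one, and the coding genes' weaker regions were in both in 70.0%. Of the 5 strongest of these, nhr-133 differed most in rank between replicates, with rank 1959 in replicate 1 and rank 13073 in replicate 2. The lists taken one at a time gave similar counts. Replicate 1 listed 96 receptors (35.6%) and put 28 of them (29.2%) among its 4037 strongest regions, against 34.6% and 41.5% of coding genes. Replicate 2 listed 98 (36.3%) and put 25 (25.5%) among its strongest, against 35.2% and 41.9%. In all 3 lists together, 74 of the 270 receptors were listed each time and 151 not once. The same counts over all coding genes are not given here, so these are not read as particular to the receptors.

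**Figure D1:**
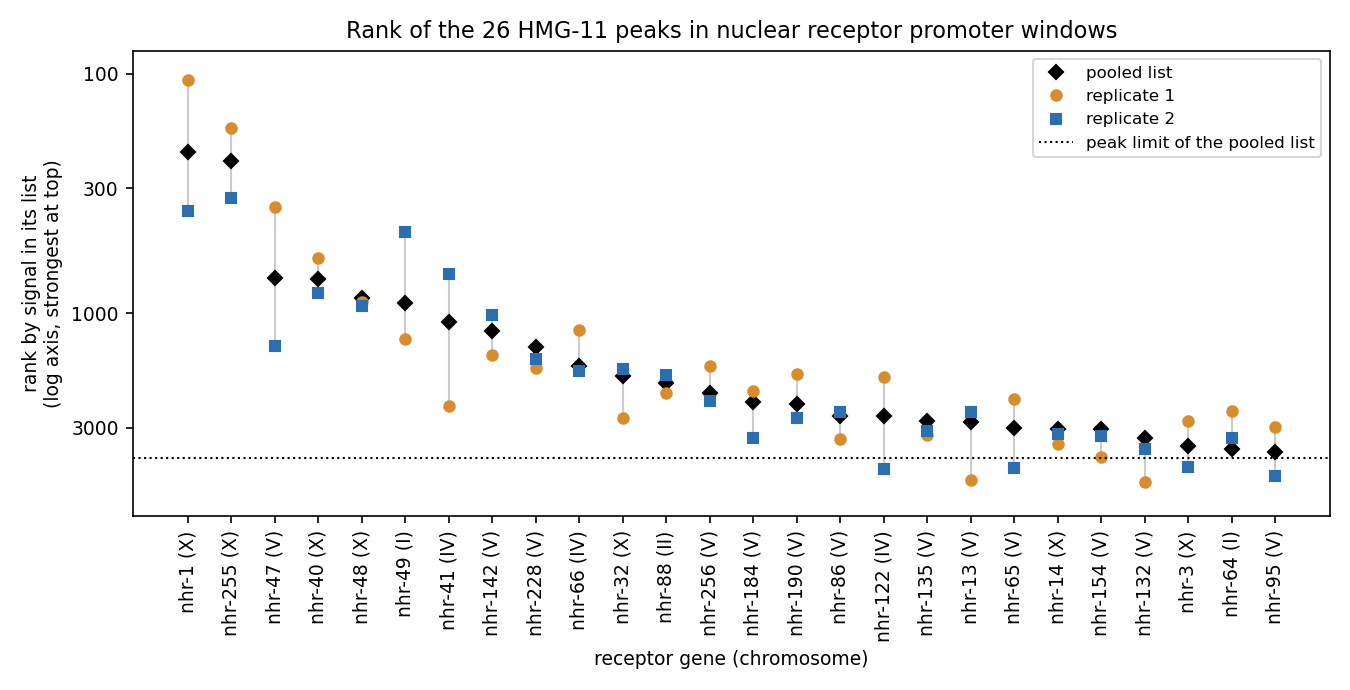
Rank by signal (log axis, strongest at the top) of the 26 receptor peaks in the pooled list, in replicate 1 and in replicate 2, in order of pooled rank, with the chromosome in brackets. The dotted line marks rank 4037, the peak limit of the pooled list, and grey lines join the ranks of 1 peak. nhr-1 and nhr-255 were the strongest in the pooled list and ranked between 106 and 373 in every list, and 6 of the weaker peaks fell below the line in 1 replicate.

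The receptor genes are spread unevenly over the genome, with 167 of the 270 on chromosome V, and the share with a listed region differed between chromosomes. On X, 13 of 24 receptors (54.2%) were listed, against 37.1% of coding genes, and 7 of these 13 (53.8%) had peaks, against 40.3%. The 7 were nhr-1, nhr-255, nhr-40, nhr-48, nhr-32, nhr-14 and nhr-3, and 4 of them were among the 5 strongest receptor peaks. On V, 53 of 167 (31.7%) were listed, against 22.0%, and 13 of the 53 (24.5%) had peaks, against 41.5%. The listed share was 5 of 23 (21.7%) against 46.1% on I, 7 of 15 (46.7%) against 30.0% on II, 3 of 8 (37.5%) against 49.6% on III and 15 of 33 (45.5%) against 32.8% on IV. Chromosome I thus had the lowest share of listed receptors while its coding genes had the highest share but one. Among listed genes, peaks were at 2 of 5 receptors on I, against 45.3% of coding genes, at 1 of 7 on II, against 40.7%, at none of 3 on III, against 46.4%, and at 3 of 15 on IV, against 45.7%. Off chromosome V, 43 of 103 receptors (41.7%) were listed, against 38.5% of coding genes, and 13 of the 43 (30.2%) had peaks, against 43.9%. The counts on single chromosomes are small, and none was tested.

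**Figure D2:**
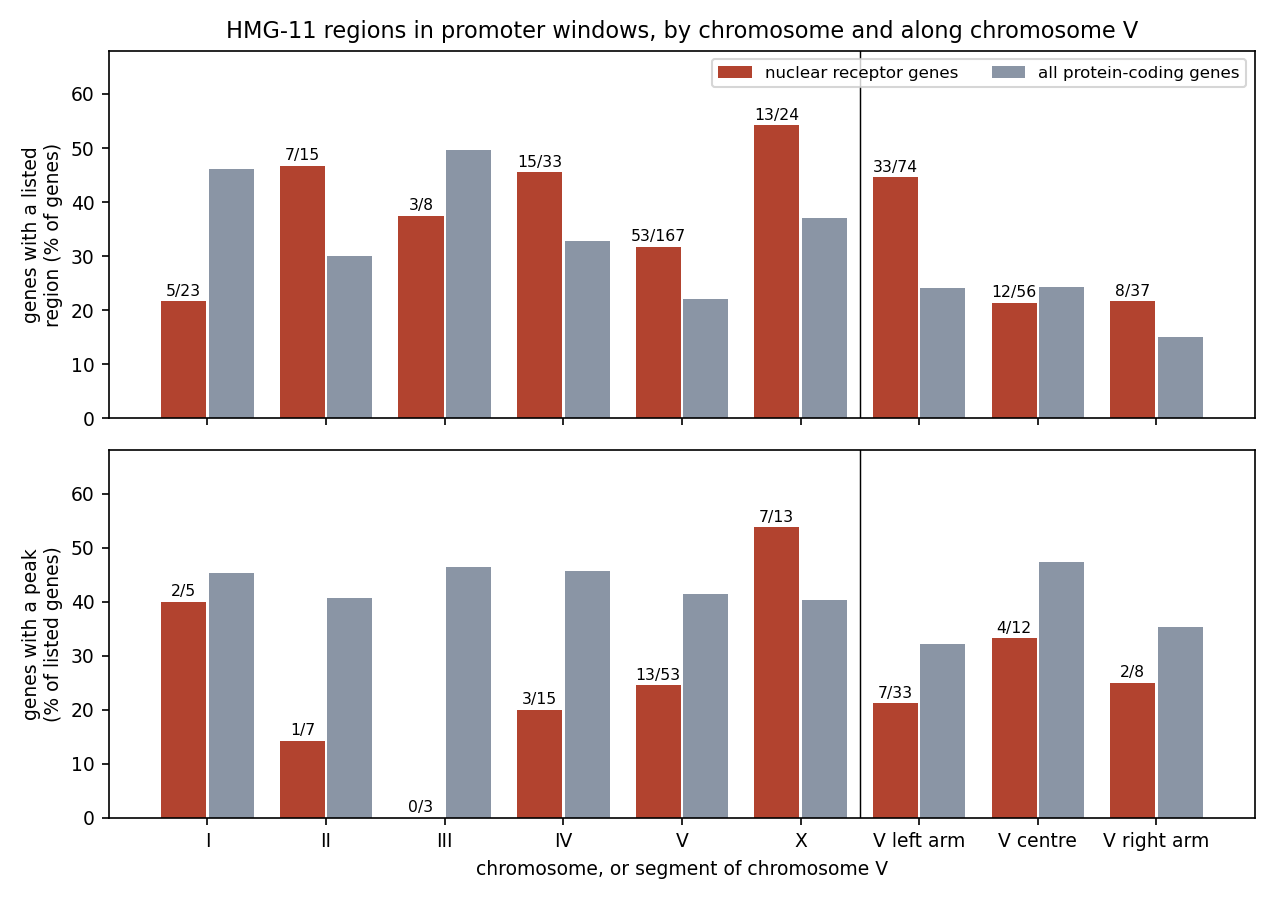
Share of genes with a listed region (top, % of genes) and share of listed genes with a peak (bottom, %), for nuclear receptor genes (red) and all protein-coding genes (grey), by chromosome and, right of the line, by segment of chromosome V. Numbers over the red bars are receptor counts. X is the one chromosome where the receptor bar is the higher one in the lower panel, with 7 of 13.

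Along chromosome V, listed receptors were mostly on the left arm, taken as the first 25% of the chromosome. There, 33 of 74 receptors (44.6%) were listed and 7 had peaks, and 24.0% of coding genes of that arm were listed. On the right arm, 8 of 37 (21.6%) were listed and 2 had peaks, against 15.1% of coding genes listed. On both arms together, 41 of 111 (36.9%) were listed, against 19.6%, and 9 of the 41 (22.0%) had peaks, against 33.3%. In the centre, 12 of 56 (21.4%) were listed, against 24.2%, and 4 of the 12 (33.3%) had peaks, against 47.4%. Over all genes of the arms, 8.11% of receptors and 6.54% of coding genes had a peak. On the arms, receptors were thus listed more often than coding genes, and their share with a peak was smaller among listed genes and slightly larger among all genes.

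Receptor genes of the arms form clusters, taken as 3 or more receptors with neighbouring starts at most 50 kb apart. There were 10 clusters with 78 receptors, of which 31 (39.7%) were listed and 6 had peaks. The 6 were 19.4% of the listed and 7.69% of all cluster receptors, against 33.3% and 6.54% of coding genes on the arms of V. Among the other coding genes within the same spans, 17 (14.9%) were listed. On the left arm, 27 of 62 cluster receptors (43.5%) and 15 of 78 other genes (19.2%) were listed. On the right arm, 4 of 16 (25%) and 2 of 36 (5.56%) were listed. A listed region is given to each gene whose window holds its summit, and close starts share windows. The strongest regions of the listed receptors were nonetheless all distinct, with 26 peaks and 70 weaker regions over the whole family.

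The clusters differed strongly among themselves. The first, at 392628 to 541485, held 19 receptors in 148.9 kb, of which 9 were listed: nhr-98, nhr-203, nhr-202, nhr-201, nhr-55, nhr-212, nhr-131, nhr-58 and nhr-132. None of its 29 other coding genes was listed. nhr-132 had its one peak, with a summit 61 bp after the start, and the other 8 had signals from 23.2 (nhr-55) to 48.3 (nhr-98). The fourth, at 2192485 to 2296977, held 19 receptors in 104.5 kb, of which 11 were listed and 3 had peaks. The peaks were those of nhr-228, nhr-184 and nhr-13. The others listed there were nhr-56, nhr-134, nhr-133, nhr-182, nhr-59, nhr-183, nhr-225 and nhr-275, with signals from 23 (nhr-275) to 66.8 (nhr-56). In that span 9 of 17 other coding genes were listed as well. These clusters had like numbers of listed receptors but unlike neighbours.

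A compact cluster of 7 receptors within 25.5 kb, at 1603906 to 1629432, had 6 listed members and no peak. They were nhr-177 (43.8), nhr-238 (37.3), nhr-178 (31.2), nhr-117 (27.1), nhr-237 (25.5) and nhr-110 (21.9). Of these weak regions, 3 were found in both replicates, since nhr-178 was missing from replicate 1, and nhr-117 and nhr-110 from replicate 2. The cluster at 600531 to 667510 had 1 of 4 receptors listed, nhr-190, with a peak. On the right arm, nhr-102 (29.9) and nhr-84 (23.1) were listed in 1 cluster, and nhr-231 (42.3) and nhr-65, with a peak of 83.6, in another. In 4 clusters no receptor was listed, and the largest of these held 10 receptors in 64 kb, at 3844429 to 3908452. Reads are hard to place in repeated sequence. Of the 78 cluster windows, 11 (14.1%) had under 90% of their 31-base words unique in the genome, against 16% of the windows of coding genes on V and 14.6% of all coding genes. This was the case for 4 of the 31 listed and 7 of the 47 unlisted cluster receptors. Over all receptors with windows of at least 90% unique words, 86 of 234 (36.8%) were listed, against 36.9% of coding genes, and all 26 peaks remained.

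**Figure D3:**
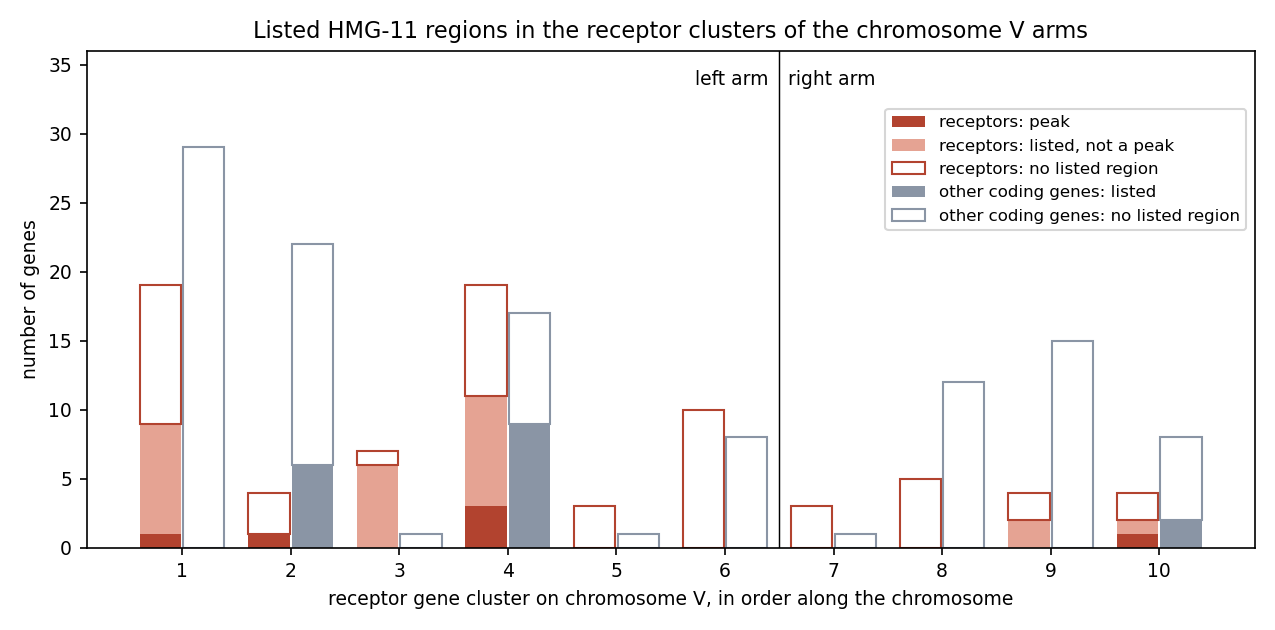
Number of genes in each of the 10 receptor clusters on the arms of chromosome V, in order along the chromosome, split by whether a listed HMG-11 region lay in the promoter window. Red bars are receptors and grey bars the other coding genes of the same span. Clusters 1 and 4 hold 19 receptors each with 9 and 11 listed, while clusters 5 to 8 hold none listed.

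Some receptor genes bore their strongest region inside an intron, beyond the promoter window. Regions in the gene outside the window were found at 59 receptors (21.9%), against 23.2% of coding genes, and peaks at 8 (2.96%), against 2.63%. Of the 244 receptors without a peak in the window, 6 (2.46%) had one further in, against 2.10%. nhr-17 had the strongest receptor peak of all, with a pooled signal of 261.3 (rank 96; ranks 235 in replicate 1 and 62 in replicate 2), in an intron 2660 bp from its start, and no listed region in its promoter window. That summit also lay in the windows of C02B4.8 and of a noncoding RNA gene. nhr-46 had an intron peak of 203.2 (rank 327; ranks 430 and 318 in replicates 1 and 2), and nhr-19 one of 179.5 (rank 519; ranks 851 and 466). Each of these 3 genes would count as weak or unlisted from its promoter alone.

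daf-12 carried 3 peaks in introns while its promoter region was no peak. The strongest had a signal of 127.4 (rank 1356; ranks 1329 in replicate 1 and 1663 in replicate 2), 1618 bp from the nearest start (X, 10637298 to 10637753), and the others had 77.2 and 73.4. nhr-23 had an intron peak of 81.0 (rank 3175; ranks 3023 and 3781), 558 bp from a start (chromosome I, 7217114 to 7217569). Thus 2 of the conserved receptors with weak promoter regions had a peak within the gene that ranked alike in both replicates. nhr-34 had 2 intron peaks, of 81.1 and 70.1, and nhr-3 (91.6) and nhr-48 (81.5) had 1 each besides their promoter peaks. Neighbouring summits of nhr-17, nhr-46 and daf-12 lay in overlapping regions and are not independent sites. Listed receptors were longer genes than unlisted ones, with a median of 3130.5 bp and 2078.5 bp, as listed coding genes were, with 2877.0 bp and 1775.5 bp.

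Receptor peaks lay on DNA poorer in A+T than the genome, and the weaker regions on DNA near the genome's composition. The median A+T content of the 101 bases at the summit was 53.5% for the 26 receptor peaks, with a range of 42.6% (nhr-65) to 69.3% (nhr-256). It was 52.5% for 2214 other peaks at coding genes. It was 64.4% for the 70 weaker receptor regions and 62.4% for 3510 other weaker regions, against 64.6% for the 6 chromosomes together. The longest run of A and T had a median of 6 bases at receptor peaks and 7 at the other peaks, and of 8 at weaker regions of both kinds. The difference between peaks and weaker regions was thus seen within the receptors and outside them alike. The values describe sequence and were not tested, and how the recovery of sequenced fragments varied with base composition is not known from these lists.

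**Figure D4:**
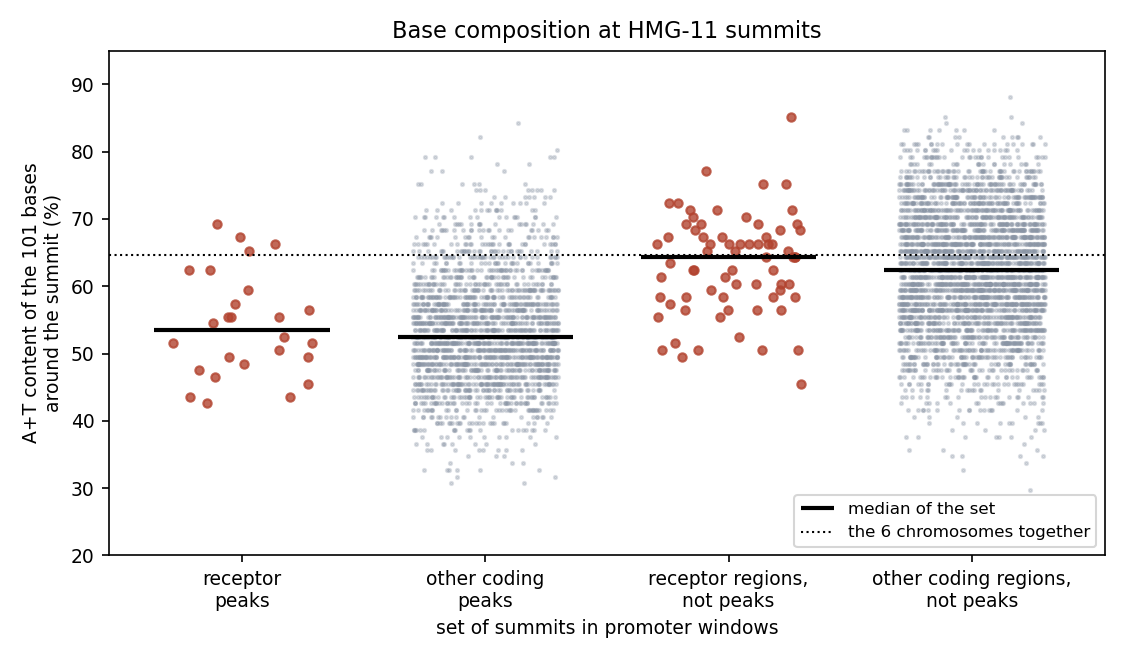
A+T content (%) of the 101 bases around each summit in promoter windows, with 1 point per distinct summit, for receptor peaks and other coding peaks, and for receptor regions and other coding regions that were not peaks. Bars mark medians (53.5%, 52.5%, 64.4% and 62.4%), and the dotted line the 64.6% of the 6 chromosomes. Both sets of peaks lie mostly below the line.

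The receptor peaks with the most A+T lay close to the start and on the arms of chromosome V. Of the 26, 4 exceeded the 64.6% of the genome: nhr-256 (69.3%), nhr-132 (67.3%), nhr-95 (66.3%) and nhr-228 (65.3%). Their summits lay at −11, 61, 69 and −86 bp of the start. The 9 receptor peaks within 100 bp of a start had a median of 62.4%, and the other 17 had 50.5%. Over all coding genes with a peak, the same medians were 53.5% and 52.5%, for 559 and 2428 genes. The 9 receptor peaks on the V arms had a median of 57.4% and the other 17 one of 51.5%, against 53.5% and 52.5% over coding genes. The gap within the receptors was therefore wider than over coding genes on both splits. Both splits were made after the values were seen and share 5 of their 9 peaks.

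The A/T motifs searched were rarer at peaks than at weaker regions, in receptors and in other genes. AAATTT, a run of the kind that AT-hooks bind, was found within the 101 bases at 3 of 26 receptor peaks (11.5%), against 10.7% of other peaks, and at 30.0% of weaker receptor regions, against 22.5% of other weaker ones. AAAAAA or its complement was at 26.9% of receptor peaks and 28.0% of other peaks. It was at 42.9% of the weaker receptor regions and 44.4% of the other weaker ones. AATATT was at none of 26 receptor peaks and 5.60% of other peaks, and at 10% and 9.72% of the weaker regions. CTCTCT on either strand, which was looked for after the sequences of nhr-1 and nhr-40 had been seen, was at 10 of 26 receptor peaks (38.5%) and 22.7% of other peaks, and at 18.6% and 10.7% of the weaker regions. AGGTCA, the core site of many nuclear receptors, was at none of the 26 receptor peaks and at 2.12% of other peaks, and at 1.43% and 2.85% of the weaker regions. All motifs were searched on both strands, and these are matches of letters, with no test.

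The summits of receptor peaks lay mainly upstream of the start, at a median of −232.0 bp and a range of −880 (nhr-3) to 94 bp (nhr-88), and the median over coding genes with peaks was −234.0 bp. Of the 26, 23 (88.5%) were upstream, against 94.4% of coding genes, and 12 (46.2%) within 300 bp upstream, against 55.4%. Each position is to the nearest start whose window holds the summit, and the nhr-41 summit also lay 223 bp after a nearer start. Summits lay in introns of nhr-40, nhr-41 and nhr-88 and in untranslated exons of nhr-66, nhr-132 and nhr-95, and for the other peaks outside the receptor gene. Weaker regions had a median of −166.0 bp at receptors and −297.0 bp at coding genes. Receptor peaks were seldom shared with another coding gene: 3 of 26 (11.5%) lay in the window of one, at nhr-47, nhr-142 and nhr-184, against 49% of coding genes with a peak. Windows of noncoding genes were not counted here, and the nhr-255, nhr-41 and nhr-256 summits lay in such windows. The window of a coding gene on the opposite strand held the same 3 of 26 (11.5%), against 46.3% of coding genes with a peak. For 25 of 26 (96.2%) the nearest coding start was the receptor's own, against 74.3%. These coding shares count genes: 2987 coding genes with a peak had 2240 distinct peaks, while the 26 receptor peaks were all distinct. A shared peak was counted for every gene whose window held it, though it cannot be nearest to all of them. The counting thus held down the 74.3% and raised the 49% and 46.3%, and no conclusion is drawn from the nearest starts.

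**Figure D5:**
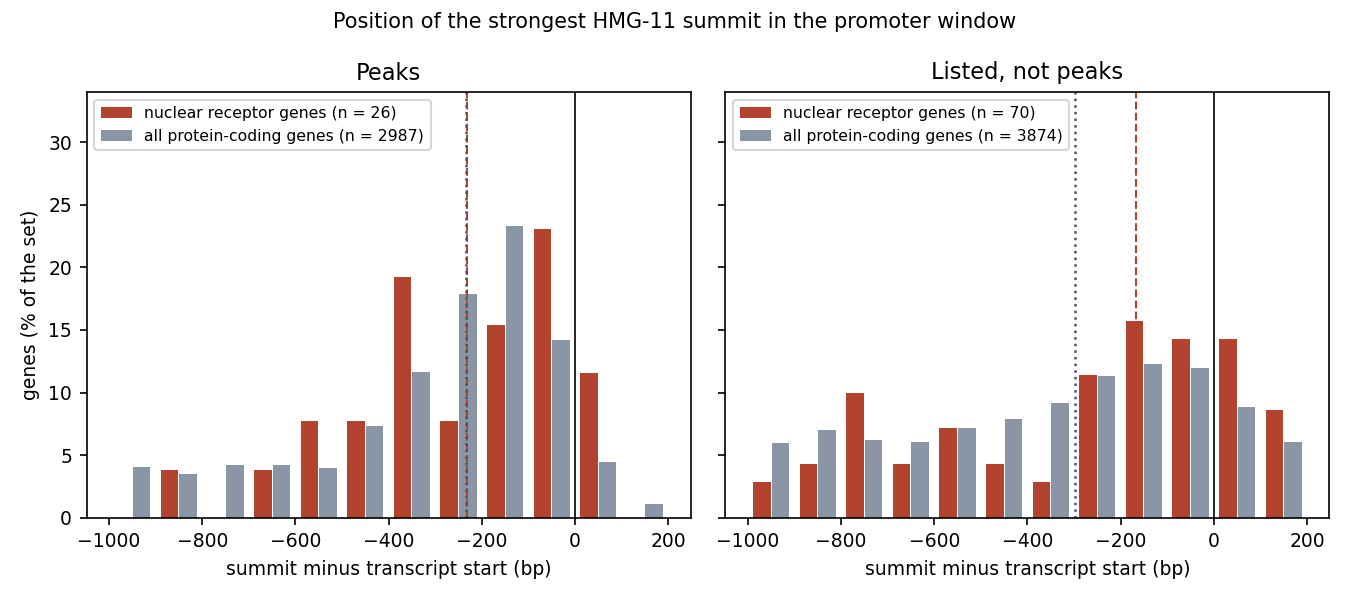
Position of the strongest summit in the promoter window relative to the transcript start (bp, negative upstream), as % of genes in 100 bp bins, for genes with a peak (left) and genes with a weaker listed region (right). Red bars are receptors and grey bars all protein-coding genes, with dashed and dotted lines at their medians. The medians of peaks nearly coincide (−232.0 and −234.0 bp), and those of weaker regions are −166.0 and −297.0 bp.

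Genes that work with the receptors were taken from short lists. Of 14 genes of hormone synthesis, sterol transport and cofactors, 9 (64.3%) were listed and 6 (66.7% of the listed) had peaks. The same shares over all coding genes were 34.4% and 43.5%. cbp-1, a histone acetyltransferase and coactivator, had a signal of 243.3 (rank 146), and din-1, a corepressor that binds DAF-12, had 240.4 (rank 157). Both exceeded every receptor's promoter peak. daf-21, annotated as hsp-90, encodes the HSP90 chaperone and had 166.4 (rank 663), with the summit nearer to the start of C47E8.4. ubc-9 (135.9, rank 1163) and smo-1 (121.9, rank 1510), the conjugating enzyme and the modifier of the SUMO pathway, and strm-1 (116.5, rank 1682), which methylates sterols, had peaks as well, although the strm-1 summit was nearer to the start of cic-1. ncr-1, a sterol transporter, had 42.2, mdt-15, a Mediator subunit that binds NHR-49, had 39.2, and emb-8, a reductase for cytochrome P450 enzymes, had 21.2. daf-9 and daf-36, which make dafachronic acids, were unlisted, as were dhs-16, hsd-1 and ncr-2. Peaks in this list thus lay at cofactors, HSP90, SUMO genes and strm-1, and none at the other genes of hormone synthesis or sterol transport.

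Of 14 known target genes of NHR-49, NHR-10, NHR-68, NHR-23 or NHR-25, 7 were listed and 1 had a peak. It was acs-2, an acyl-CoA synthetase gene turned on by fasting through NHR-49, with a signal of 113.6 (rank 1762), 626 bp upstream. The 6 others listed were fat-6 (48.2), lin-42 (46.3), noah-1 (44.4), hphd-1 (35.3), mlt-10 (25) and mlt-8 (22.1), genes of fat desaturation, developmental timing, the cuticle, propionate breakdown and moulting. The fat-6 summit was nearer to the start of ZK822.9. Of 4 nuclear receptor genes with other symbols, sex-1, fax-1, unc-55 and odr-7, none was listed, against 34.4% of all protein-coding genes.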

How the data were processed

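ChIP-seq region lists of 2 replicates of 1 group were used, on ce11. Per the deposited records, regions were called in each replicate and in the pooled reads against a control alignment, and the pooled regions were thresholded by IDR. The aligner, peak caller, versions, signal scale and read numbers remain not given in the sources used here. Each region's signal is the authors' deposited value and ranks regions within 1 list. Summits were read from the deposited offsets, and all coordinates count from 1. Every region ended within its chromosome in the RefSeq sequence of WBcel235. Transcript starts came from Ensembl release 115. Replicate regions were matched to pooled ones by an overlap of at least 1 bp and the nearest summit. Shares and medians were computed with Python 3.11.15, pandas 2.3.3 and numpy 2.4.6, and the window and distance functions were tested on simulated regions. No significance test was run: there is 1 group, and genes are not replicates. Members and gene lists were chosen with earlier results of these data known. Genes named are every member with a peak, every member of the 3 role lists, the 5 strongest members outside the peaks, the 5 weakest peaks, listed members of V arm clusters, and listed genes of the 3 other lists. Unlisted genes of those lists, neighbours sharing a window, receptors with intron peaks and nhr-274 are named besides, chosen after their values were seen. daf-21 was matched by hand to its current symbol, hsp-90. The ce10 lists were not used. No sequence is printed from chromosome I or from untranslated regions.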

Additional observations from a re-analysis of the deposited data

How the results depend on the processing

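Of 30 alternatives tried over 6 results, 27 stayed within the limits set for a change and 3 did not. With the stronger 50% of the peaks alone, 12 of 96 listed receptors (12.5%) had a peak, against 24.8% of listed coding genes; fewer peaks were counted by construction. With 25 bp on either side of the summit, the median A+T content over all 96 receptor summits was 60.8%, against 61.9% with 50 bp. With replicate 1 or replicate 2 left out, the count of listed receptors was 96 to 98, that with a peak 25 to 28, the median A+T content 61.4% to 62.9%, the median summit position −212.0 to −187.5 bp (−177.0 bp in the pooled list; the cause was not tested), and the number nearest to their own start 91 to 92. No paired analysis was possible because there is 1 group. Receptor peaks numbered 23 to 35 under other windows, other starts and nearest-start assignment. They were at 26.1% to 33.0% of listed receptors, against 37.4% to 47.1% of listed coding genes. With each region counted once, the shares were 27.1% and 38.5%. The gap was narrower still, with 26.7% and 32.3%, for regions in the window of 1 coding gene only. Both of these settings were added after the data were seen. When a region had to be among the strongest of both replicates, 20 receptor peaks remained. They were at 20.8% of listed receptors, against 34.4% to 34.6% of listed coding genes. Depth is unknown, and receptors without a listed region may have regions too weak to be listed.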
